A study of Rattus norvegicus with 6 samples.

Results

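The genes described here are 42 genes of the DNA replication machinery, covering origin licensing, the replicative helicase, DNA polymerases, the sliding clamp and its loader, single-strand binding, strand maturation, chromatin assembly and nucleotide supply. They were chosen by gene name, with a mean normalized count of at least 5 over the 6 cell lines. All 42 names were found, each once, among the 32900 features of the gene table, and all 42 were among the 15579 features that passed the same minimum and were tested. Total RNA depleted of rRNA was sequenced from 6 clonal lines of INS-1, an insulinoma line from a rat beta-cell tumour to which a human insulin transgene and an mCherry-tagged mouse *Ins2* transgene were added, all grown at 7.5 mM glucose. The 3 control lines (5-9, 2 and 16) carry a CRISPR/Cas9 deletion of the Prader-Willi syndrome (PWS) imprinted domain on the silent maternal allele. The 3 PWS lines (3, 19-1 and 19-4) carry that maternal deletion and a deletion of the active paternal allele as well, so no line in the comparison has an intact maternal domain. Each line is 1 clone and 1 library. All of the others go back to control line 5-9, and the PWS lines 19-1 and 19-4 came from 1 parent clone, so the p-values measure the spread between related clones.

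DNA replication begins when the origin recognition complex, with Cdc6 and Cdt1, loads the ring-shaped MCM2-7 helicase onto origins during G1. On entry into S phase Cdc45 and the GINS complex join the ring and switch it on, polymerase alpha with primase lays down primers, and polymerases epsilon and delta copy the leading and lagging strands while held by the PCNA clamp, which the RFC complex loads. Many of these genes are transcribed in a burst around the G1/S boundary under E2F transcription factors. Insulinoma lines divide in culture, whereas most beta cells of the adult islet rarely enter the cell cycle.

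The libraries held 26016478 to 36084261 assigned reads, and the 42 genes together took 0.332 to 0.381% of them. Each member had between 122 and 12730 reads in each library. *Snrpn*, a paternally expressed gene inside the deleted domain, had normalized counts of 3956, 3149 and 3874 in control lines 5-9, 2 and 16 and of 2.04, 0 and 3.64 in PWS lines 3, 19-1 and 19-4, as the labels state (it shares reads with the overlapping *Snurf*). Of 14 beta-cell markers, 13 were named in the table and all 13 had a mean of at least 5, whereas *Sst*, *Prss1*, *Cdh5* and *Ptprc*, which mark delta, acinar, endothelial and immune cells, had no read in any line. The summed normalized counts of the 13 beta-cell markers, mostly from *Ins1* and *Iapp*, ran from 532928 to 602023 in control lines and from 289812 to 500206 in PWS lines. The part of that difference in the values of the replication genes was not tested.

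Octamers of the kind that E2F factors bind stood in part of the promoters of these genes. RefSeq promoter windows of 300 bases (250 before and 50 after the start, GRCr8) were given for 36 of the 42 genes (37 windows, since *Dut* has a pair of them), with no window for *Orc1*, *Cdc6*, *Mcm4*, *Gins4*, *Rpa3* or *Rrm2*. An E2F-type octamer (TTTCCCGC, TTTGGCGC, TTTCGCGC or TTTGCCGC, on either strand, overlapping matches counted) was present in 15 of the 37 windows, or 40.5%, against 2.14% of the 33469 windows of the whole table and 4.01% of the windows of tested genes. Among 110 further genes of replication and G1/S control, described last, the share was 31.5% (29 of 92 windows). Of the 24 octamers in the windows of the 42 genes, 18 began between 100 bases before and 50 bases after the start. The CCAAT box stood in 59.5% of the members' windows in 37.5% of all windows and in 37.3% of those of tested genes. The CHR element TTTGAA stood in 10.8% of the members' windows, 18.3% of all windows and 11.4% of those of tested genes. These are matches of letters and do not show binding. The windows of *Mcm2* and *Mcm7* (helicase ring) and of *Gins1* and *Gins3* (helicase activation) are printed below because they show the arrangement in genes whose values the results turn on. *Mcm2* lies at chr4:122918045-122918344 (minus strand), *Mcm7* at chr12:22163129-22163428 (minus strand), *Gins1* at chr3:160184670-160184969 (plus strand) and *Gins3* at chr19:9434630-9434929 (minus strand). The sequences run 5′ to 3′ on the strand of the gene, and capitals mark the E2F-type octamers.
Mcm2: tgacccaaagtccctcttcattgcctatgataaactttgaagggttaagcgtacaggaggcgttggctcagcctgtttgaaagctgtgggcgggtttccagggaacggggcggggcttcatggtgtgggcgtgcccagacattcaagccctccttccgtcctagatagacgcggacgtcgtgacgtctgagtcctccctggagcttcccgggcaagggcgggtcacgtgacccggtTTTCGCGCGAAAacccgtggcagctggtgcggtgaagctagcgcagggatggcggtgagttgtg
Mcm7: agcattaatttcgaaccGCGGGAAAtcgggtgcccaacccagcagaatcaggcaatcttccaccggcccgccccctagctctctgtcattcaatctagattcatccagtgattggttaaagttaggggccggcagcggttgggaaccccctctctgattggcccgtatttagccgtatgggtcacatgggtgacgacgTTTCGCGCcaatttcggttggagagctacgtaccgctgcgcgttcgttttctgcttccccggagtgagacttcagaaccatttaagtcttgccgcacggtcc
Gins1: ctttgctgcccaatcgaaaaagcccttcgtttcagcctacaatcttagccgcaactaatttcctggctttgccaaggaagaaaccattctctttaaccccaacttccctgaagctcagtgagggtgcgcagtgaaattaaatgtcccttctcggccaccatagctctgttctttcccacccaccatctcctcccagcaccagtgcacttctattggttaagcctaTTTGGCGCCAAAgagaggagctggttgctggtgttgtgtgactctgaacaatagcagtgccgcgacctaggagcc
Gins3: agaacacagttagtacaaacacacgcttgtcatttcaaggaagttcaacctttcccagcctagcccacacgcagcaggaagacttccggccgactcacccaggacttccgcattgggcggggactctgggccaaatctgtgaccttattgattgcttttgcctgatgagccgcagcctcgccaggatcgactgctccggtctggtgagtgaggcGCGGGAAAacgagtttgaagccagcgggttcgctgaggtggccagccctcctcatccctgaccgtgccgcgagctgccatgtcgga
In *Mcm2* and *Gins1* a pair of octamers on opposite strands overlapped in 1 palindromic block close to the start, and *Gins3* held 1 octamer in the same region. In *Mcm7* the octamers were apart, the farther 1 beginning 233 bases before the start. The 15 members with an octamer had a median log2 fold change (PWS minus control) of -0.06. The 21 with a window but no octamer had -0.11. The 6 members without a window, from -0.38 (*Rrm2*) to -0.03 (*Mcm4*), were in neither group, and the difference was not tested.

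Most replication genes were slightly lower in the PWS lines, and none passed the adjusted threshold in the main test. In limma on log2(normalized count + 1), 38 of the 42 members had a log2 fold change below 0, against 50.7% of all tested genes and 52% of those with a mean of at least 100, and 4 (*Cdt1*, *Pola1*, *Chaf1b* and *Tyms*) had one above 0. The median over the members was -0.11, beside -0.00284 over all tested genes. Single values ran from -0.38 (*Rrm2*) to 0.13 (*Cdt1*), with standard errors of 0.06 to 0.18. The fold change lay less than 1 standard error from 0 for 20 members, 1 to 2 standard errors for 9 and at least 2 for 13. No member had an adjusted p under 0.05 in limma or in edgeR, where 0.257% and 0.205% of all genes did. In DESeq2, which called 1.46% of all genes (0.783% as lower), 1 member did, *Rrm2*.

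At an unadjusted p under 0.05, 9 members were lower in limma, 10 in edgeR and 9 in DESeq2, and none was higher in any of these tools, while 5.35% of all genes were lower and 6% higher at that level in limma, 5.24 and 6.14% in edgeR, and 5.01 and 5.38% in DESeq2. The 9 were *Cdc6*, *Cdc45*, *Gins1*, *Gins3*, *Pola2*, *Rpa3*, *Chaf1a*, *Rrm1* and *Rrm2*, and the 95% intervals of the same 9 lay wholly below 0. All 3 PWS lines lay below all 3 control lines for 15 members (9.01% of all tested genes, and 9.68% of those with a mean of at least 100) and above them for 0 members (8.43% of all genes). Without PWS line 19-4 the count of 15 became 23, where 13.4% of all genes then lay apart in that direction, and 1 member lay wholly above the controls without control line 2 (*Cdt1*) or without PWS line 3 (*Chaf1b*). Without line 19-1 the count of 9 at an unadjusted p under 0.05 became 5, where 4.08% of all genes were lower at that level. The 95% intervals of the 42 fold changes reached from -0.68 to 0.41, so at this depth and number of lines no interval extended to a doubling or a halving.

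**Figure D1:**
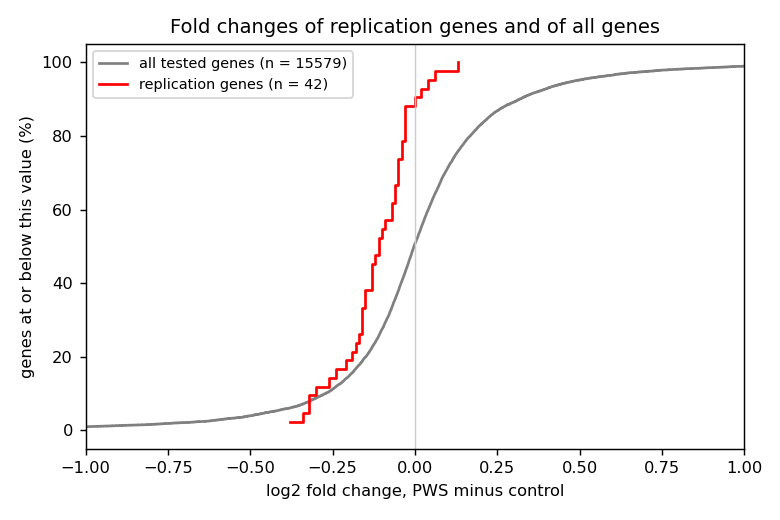
Cumulative share of genes (y axis, %) at or below each log2 fold change, PWS minus control (x axis), for the 42 replication genes (red) and the 15579 tested genes (grey; values beyond the axis are not shown). The red curve is narrow and lies left of the grey curve over most of its course, with 38 of 42 genes below 0, from -0.38 to 0.13.

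In bulk RNA a smaller share of cells in S phase and less of these transcripts per cell cannot be told apart. The lines also differed among themselves within each group. Relative to the control mean, the median member stood 0.03 higher on the log2 scale in control line 5-9, 0.02 higher in line 2 and at -0.04 in line 16, and at -0.13, -0.18 and -0.06 in PWS lines 3, 19-1 and 19-4. Lines 3 and 19-1 had 40 and 38 members below the control mean and were the highest of the 6 lines for 0 members. Among genes with a mean of at least 50, by chromosome, line 3 was highest for 1.83 to 11.1% and line 19-1 for 5.24 to 28.5%. Line 19-4 had 27 members below the control mean. It was the highest line for 10 members (and for 18.9% of all tested genes) and the lowest for 4. Line 19-1, its sister subclone, was the lowest line for 21 members.

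**Figure D2:**
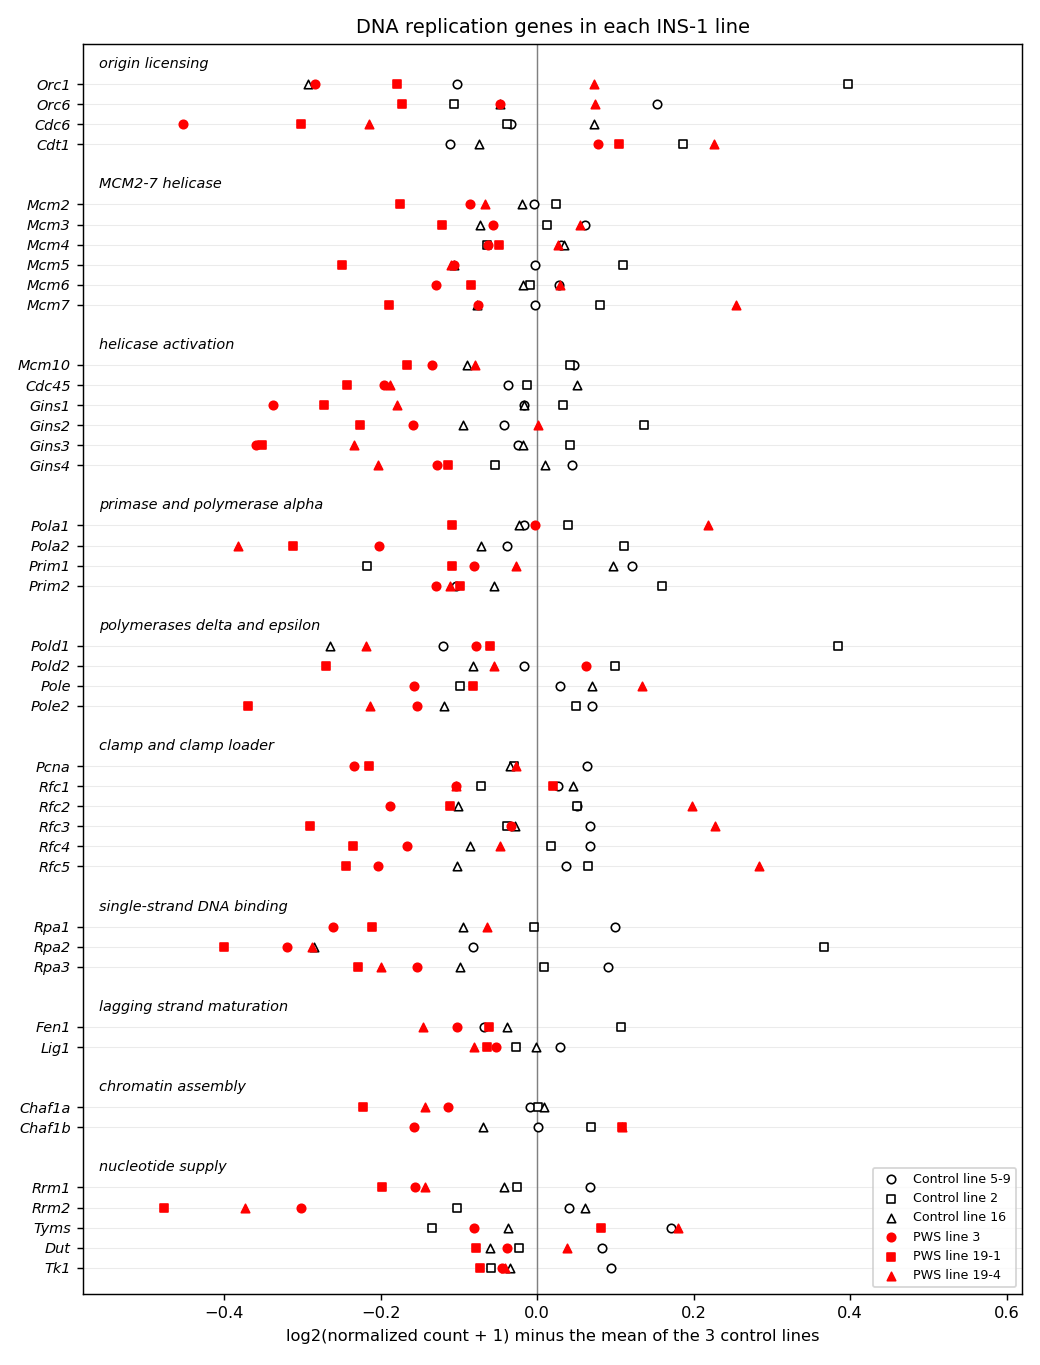
Each of the 42 genes (rows, grouped by role) in each line: log2(normalized count + 1) minus the mean of the 3 control lines (x axis), open black symbols for control lines and filled red symbols for PWS lines. Most red symbols lie left of 0, with the medians of lines 3, 19-1 and 19-4 at -0.13, -0.18 and -0.06. Line 19-4 is the highest line for 10 of these genes (and for 18.9% of all tested genes), among them *Mcm7*, *Pole*, *Rfc2*, *Rfc3* and *Rfc5*.

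Some members lay on a chromosome whose genes were high together in 1 line. This pattern was noticed in the data, and genes were assigned to chromosomes by name from GRCr8, which matched 80.2% of the tested genes and all 42 members. For 382 genes of chromosome 12 with a mean of at least 50, the median was 0.26 higher (log2) in PWS line 19-4 than the median of the 6 lines, and 78.3% of these genes were highest in that line, against 12.5 to 21.5% on the other 19 chromosomes outside chromosomes 5 and 12. For 730 genes of chromosome 5, the median was 0.33 higher in control line 2, and 69.9% were highest there, against 14 to 34.3% on the same other chromosomes. By gene order, the medians of the first, middle and last stretch (nearly equal in number of genes) were 0.28, 0.27 and 0.23 on chromosome 12 in line 19-4, but 0.39, 0.43 and 0.06 on chromosome 5 in line 2, so the last stretch of chromosome 5 was hardly raised. On the other 19 chromosomes every line had a median between -0.06 and 0.03. DNA copy number was not tested here.

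The 5 members on chromosome 12 (*Mcm7*, *Pole*, *Rfc2*, *Rfc3* and *Rfc5*) were all highest in line 19-4, and both members on chromosome 5 (*Orc1* and *Rpa2*) were highest in line 2. Of the 37 members not on chromosome 12, 5 were highest in line 19-4, and of the 40 not on chromosome 5, 10 were highest in line 2. The 5 members on chromosome 12 had medians of -0.16, -0.19 and 0.23 against the control mean in lines 3, 19-1 and 19-4, and none had groups that did not overlap. Over the 35 members on other chromosomes, 31 were lower, the median log2 fold change was -0.12, and 14 were lower without overlap (9.01% of all tested genes). In an alternative added after the data were seen, the median deviation of its chromosome in each line was subtracted from every matched gene. The median of the 42 was then -0.12, 38 were lower, and none passed the adjusted threshold. At an unadjusted p under 0.05 in limma, 10 were lower (5.31% of all genes in the same fit). The same 0.33 was subtracted from all chromosome 5 genes in line 2, although the last stretch stood at 0.06, so centred values there can be over-corrected.

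**Figure D3:**
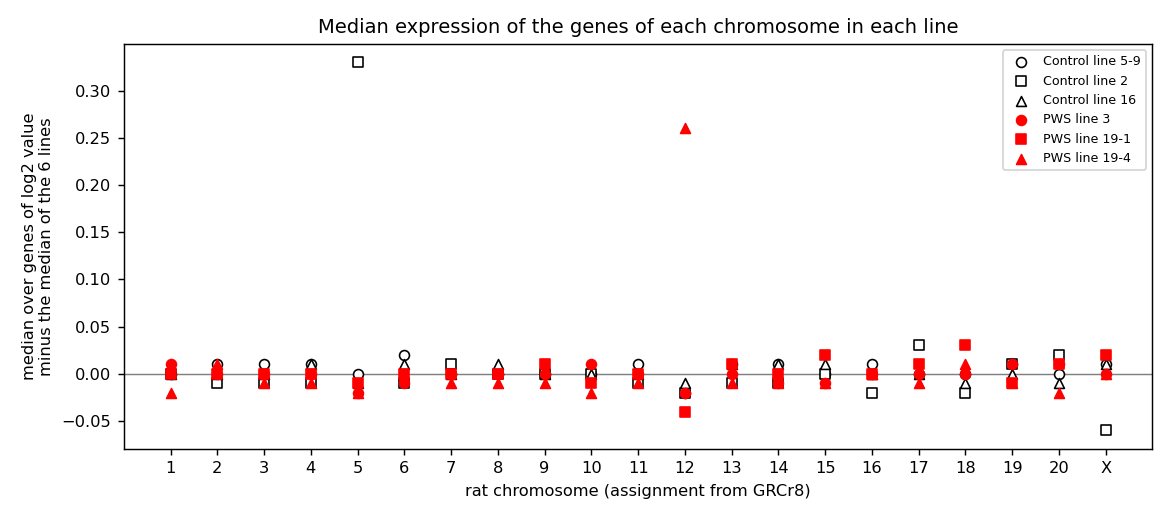
Median over the genes of each rat chromosome (x axis, GRCr8) of the log2 value minus the median of the 6 lines (y axis), by line; open black symbols are control lines and filled red symbols PWS lines. All points lie between -0.06 and 0.03 except line 2 on chromosome 5 (0.33) and line 19-4 on chromosome 12 (0.26).

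Of the origin licensing genes, *Cdc6*, the ATPase that recruits Cdt1 and the MCM ring to the origin, had the most negative value. Its normalized counts were 736, 733 and 792 in control lines 5-9, 2 and 16 and 550, 611 and 649 in PWS lines 3, 19-1 and 19-4. The groups did not overlap, the mean was 754 ± 33.1 (SD, n = 3) in control and 603 ± 49.9 in PWS lines (a change of -19.9%), and the log2 fold change of -0.32 (SE 0.09) had an adjusted p of 0.285 in limma. *Cdt1*, the MCM loading factor, counted 235, 289 and 241 in control lines and 268, 273 and 297 in PWS lines, so line 2 lay within the PWS range (log2 fold change 0.13, SE 0.12, and 0.23 without line 2). *Orc1*, a subunit of the origin recognition complex, counted 347, 491 and 304 in control and 306, 329 and 392 in PWS lines. Line 2 was by far the highest for *Orc1*, and the 40 nearest genes on chromosome 5 had a median of 0.33 in that line. Its log2 fold change of -0.13 became 0.07 without line 2 and -0.01 with chromosome centring. *Orc6* had a log2 fold change of -0.05.

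The 6 subunits of the MCM2-7 ring, which unwinds the parental duplex, all had fold changes at or below 0, from -0.16 to -0.00, and none had an unadjusted p under 0.05. *Mcm2* counted 4401, 4490 and 4355 in control and 4161, 3908 and 4214 in PWS lines, with no overlap between groups (log2 fold change -0.11, SE 0.06). *Mcm5* counted 3689, 3989 and 3435 in control and 3434, 3110 and 3426 in PWS lines (-0.16, SE 0.08, and -0.10 without line 2). Its groups did not overlap, but control line 16 and PWS line 3 all but touched. *Mcm3* counted 2967, 2869 and 2705 in control and 2736, 2615 and 2955 in PWS lines, *Mcm4* 7967, 7461 and 7992 against 7472, 7543 and 7951, and *Mcm6* 8037, 7836 and 7783 against 7207, 7438 and 8043. All 3 PWS lines lay inside the control range for *Mcm4*, lines 3 and 19-4 did for *Mcm3*, and line 19-4 lay just above it for *Mcm6*. The fold changes were -0.04, -0.03 and -0.06, and with 1 line left out they ran from -0.09 (without line 19-4) to -0.00 (without line 19-1) for *Mcm3*, from -0.06 (without line 2 or 19-4) to -0.01 for *Mcm4*, and from -0.11 (without line 19-4) to -0.03 (without line 3) for *Mcm6*. *Mcm7* counted 5052, 5352 and 4800 in control and 4805, 4441 and 6036 in PWS lines. Line 19-4 was the highest of all 6 for *Mcm7*, and the median of its 40 nearest genes on chromosome 12 was 0.26 in that line. The *Mcm7* fold change was -0.00 (SE 0.11), -0.13 without line 19-4, -0.09 with chromosome centring and 0.01 in edgeR and in DESeq2.

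The genes of helicase activation stood lowest among the larger groups, with 6 of 6 below 0, a median of -0.18 and 4 of 6 without overlap (9.01% of all tested genes were lower without overlap). GINS is a ring of 4 subunits that binds MCM2-7 together with Cdc45. *Gins3* counted 664, 695 and 667 in control and 526, 529 and 574 in PWS lines, so the lowest control line lay well above the highest PWS line. The mean was 675 ± 17.2 in control and 543 ± 26.9 in PWS lines (SD, n = 3; a change of -19.6%), with a log2 fold change of -0.32 (SE 0.08; adjusted p = 0.277 in limma). *Gins1* counted 694, 718 and 694 in control and 555, 581 and 620 in PWS lines, also apart (-0.26, SE 0.08). *Cdc45* counted 917, 933 and 975 in control and 822, 795 and 826 in PWS lines (-0.21, SE 0.07), and *Gins4* 730, 682 and 713 against 648, 654 and 615 (-0.15, SE 0.08). For both of these genes every PWS line lay below every control line. *Gins2*, the member with the lowest counts, counted 166, 188 and 160 in control and 153, 146 and 171 in PWS lines, with overlap (-0.13, and -0.06 without line 2). *Mcm10*, which aids activation of the assembled helicase, counted 760, 757 and 691 against 670, 655 and 696, and line 19-4 lay just above control line 16. *Gins1*, *Cdc45*, *Gins2* and *Gins4* are given here, as are *Orc1*, *Orc6*, *Prim1*, *Prim2*, *Pold1*, *Pold2*, *Rfc1*, *Rfc2*, *Rfc4*, *Rfc5* and *Rpa3* elsewhere, after their values were seen.

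**Figure D4:**
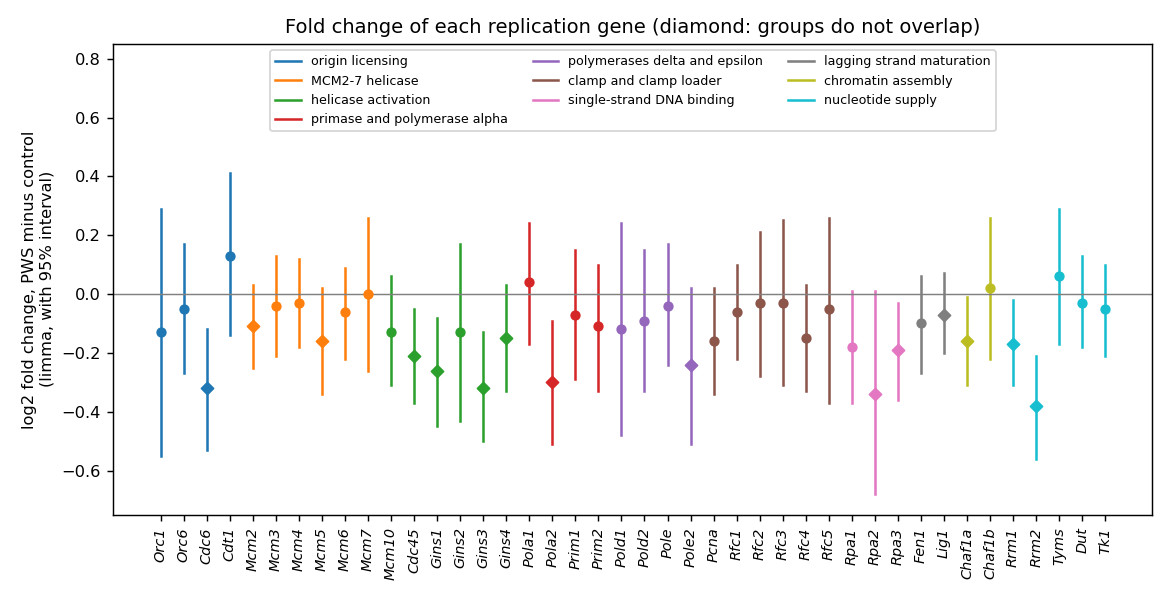
Log2 fold change of each of the 42 genes, PWS minus control (y axis; limma, bars are 95% intervals), coloured by role; diamonds mark the 15 genes whose groups do not overlap. The point estimates of 38 genes are below 0, and 9 intervals lie wholly below 0.

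Polymerase alpha starts each new strand on an RNA primer made by its primase subunits. *Pola2*, its regulatory subunit, counted 665, 738 and 650 in control and 594, 550 and 524 in PWS lines. The groups did not overlap, and the mean was 684 ± 47.1 in control and 556 ± 35.6 in PWS lines (SD, n = 3; a change of -18.7%; log2 fold change -0.30, SE 0.09; adjusted p = 0.321 in limma). *Pola1*, the catalytic subunit on the X chromosome, counted 6813, 7082 and 6781 in control and 6876, 6390 and 8019 in PWS lines. Both subunits of the same enzyme thus had fold changes of opposite sign, and the value for *Pola1*, 0.04 (SE 0.09), turned to -0.06 without line 19-4. The primase genes *Prim1* and *Prim2* had fold changes of -0.07 and -0.11, with overlap in both. Both moved when 1 line was left out. Without line 2 *Prim1* was at -0.18 and *Prim2* at -0.03. *Prim1* was at -0.01 without line 5-9 and at -0.02 without line 16.

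Of the polymerases that extend the strands, *Pole2*, the second subunit of polymerase epsilon, counted 285, 281 and 250 in control and 244, 210 and 234 in PWS lines (log2 fold change -0.24, SE 0.12), with no overlap but nearest lines close together. *Pole*, the catalytic subunit on chromosome 12, counted 3836, 3512 and 3945 in control and 3370, 3553 and 4125 in PWS lines (-0.04, SE 0.09). The PWS lines bracketed the controls for *Pole*, and the fold change was -0.12 both without line 19-4 and with chromosome centring. *Pold1*, the catalytic subunit of polymerase delta, counted 818, 1161 and 740 in control and 842, 853 and 764 in PWS lines. Line 2 was high here too, although *Pold1* lies on chromosome 1 and the median of its neighbours in that line was -0.01, and its fold change of -0.12 (SE 0.16) became 0.07 without line 2. *Pold2* had a fold change of -0.09.

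PCNA is the ring that tethers polymerases to the template. *Pcna* counted 10277, 9629 and 9600 in control and 8355, 8470 and 9645 in PWS lines, so lines 3 and 19-1 were below every control while line 19-4 was level with control lines 2 and 16. Its log2 fold change was -0.16 (SE 0.08), and -0.22 without line 19-4. In the clamp loader, *Rfc3* on chromosome 12 counted 1598, 1485 and 1496 in control and 1491, 1247 and 1786 in PWS lines (-0.03, SE 0.12). *Rfc5* counted 2628, 2680 and 2386 against 2224, 2163 and 3117, and *Rfc2* 1776, 1775 and 1597 against 1504, 1586 and 1965. In all 3 of these chromosome 12 genes line 19-4 was the highest and line 19-1 or line 3 the lowest. The medians of their nearest genes in line 19-4 were 0.25 for *Rfc3* (24 genes), 0.20 for *Rfc5* and 0.28 for *Rfc2* (40 genes each), and with chromosome centring the fold changes of *Rfc3*, *Rfc5* and *Rfc2* were -0.12, -0.14 and -0.12. The loader subunits on other chromosomes, *Rfc4* and *Rfc1*, had fold changes of -0.15 and -0.06. With 1 line left out these ran from -0.20 to -0.11 for *Rfc4* and from -0.10 to -0.04 for *Rfc1*.

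Replication protein A coats exposed single strands, and its 3 subunits had fold changes below 0, with a median of -0.19 and none past the adjusted threshold. *Rpa1* counted 2000, 1862 and 1749 in control and 1558, 1613 and 1786 in PWS lines (-0.18, SE 0.08), with line 19-4 above control line 16. *Rpa2* counted 1400, 1910 and 1216 in control and 1187, 1122 and 1213 in PWS lines (-0.34, SE 0.15). For *Rpa2* the groups did not overlap but nearly touched, line 2 was the highest by far as for its neighbours on chromosome 5 (median 0.28 in that line), and the fold change was -0.15 without line 2 and -0.22 with chromosome centring. *Rpa3* counted 2190, 2070 and 1921 in control and 1849, 1755 and 1792 in PWS lines (-0.19, SE 0.07), with no overlap.

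Of the genes of strand maturation and chromatin assembly, *Chaf1a* had the most negative fold change. *Fen1*, the flap endonuclease of Okazaki fragments, counted 2329, 2630 and 2379 in control and 2275, 2341 and 2208 in PWS lines (-0.10, SE 0.07, and -0.05 without line 2). *Lig1*, the ligase that seals them, counted 4539, 4364 and 4445 against 4288, 4256 and 4205, without overlap (-0.07, SE 0.06). Only 20.3% of the *Lig1* reads were unique and unambiguous, and on those the fold change was 0.01, so its value is uncertain. *Chaf1a*, the large subunit of the chromatin assembly factor that deposits histones behind the fork, counted 1802, 1814 and 1824 in control and 1676, 1554 and 1641 in PWS lines. The control lines lay very close together (SD 11), all above the PWS lines, and the mean changed by -10.4% (log2 fold change -0.16, SE 0.06; adjusted p = 0.419 in limma). Its partner *Chaf1b* counted 480, 503 and 457 against 430, 517 and 517, with the control lines inside the PWS range (0.02, SE 0.10).

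Nucleotide supply held the member with the most negative fold change. Ribonucleotide reductase makes deoxyribonucleotides from ribonucleotides, and *Rrm2* encodes the small subunit whose level rises in S phase. *Rrm2* counted 2729, 2471 and 2767 in control and 2152, 1905 and 2048 in PWS lines. Every PWS line lay below every control line, and the mean was 2656 ± 161 in control and 2035 ± 124 in PWS lines (SD, n = 3; a change of -23.4%). Its log2 fold change was -0.38 (SE 0.08), with an adjusted p of 0.211 in limma, 0.225 in edgeR and 0.00797 in DESeq2. Of the *Rrm2* reads, 66% were unique and unambiguous, and on those the fold change was -0.36. *Rrm1*, the large subunit and the member with the highest counts, counted 12087, 11335 and 11205 in control and 10356, 10054 and 10448 in PWS lines, also apart, with a change in the mean of -10.9% (log2 fold change -0.17, SE 0.06; adjusted p = 0.408 in limma).

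The salvage and thymidylate enzymes had fold changes nearer to 0, with intervals that overlap that of *Rrm1*. *Tyms*, thymidylate synthase, counted 1637, 1324 and 1417 in control and 1374, 1538 and 1647 in PWS lines (0.06, SE 0.10). *Dut*, the dUTPase that keeps uracil out of DNA, counted 4808, 4468 and 4353 against 4420, 4299 and 4661 (-0.03, SE 0.07). *Tk1*, the thymidine kinase of S phase, counted 3108, 2793 and 2841 against 2821, 2766 and 2830 (-0.05, SE 0.07, and -0.01 without line 5-9). The groups overlapped for all 3 enzymes, and the 95% intervals ran from -0.17 to 0.29 for *Tyms*, from -0.18 to 0.13 for *Dut* and from -0.21 to 0.10 for *Tk1*.

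**Figure D5:**
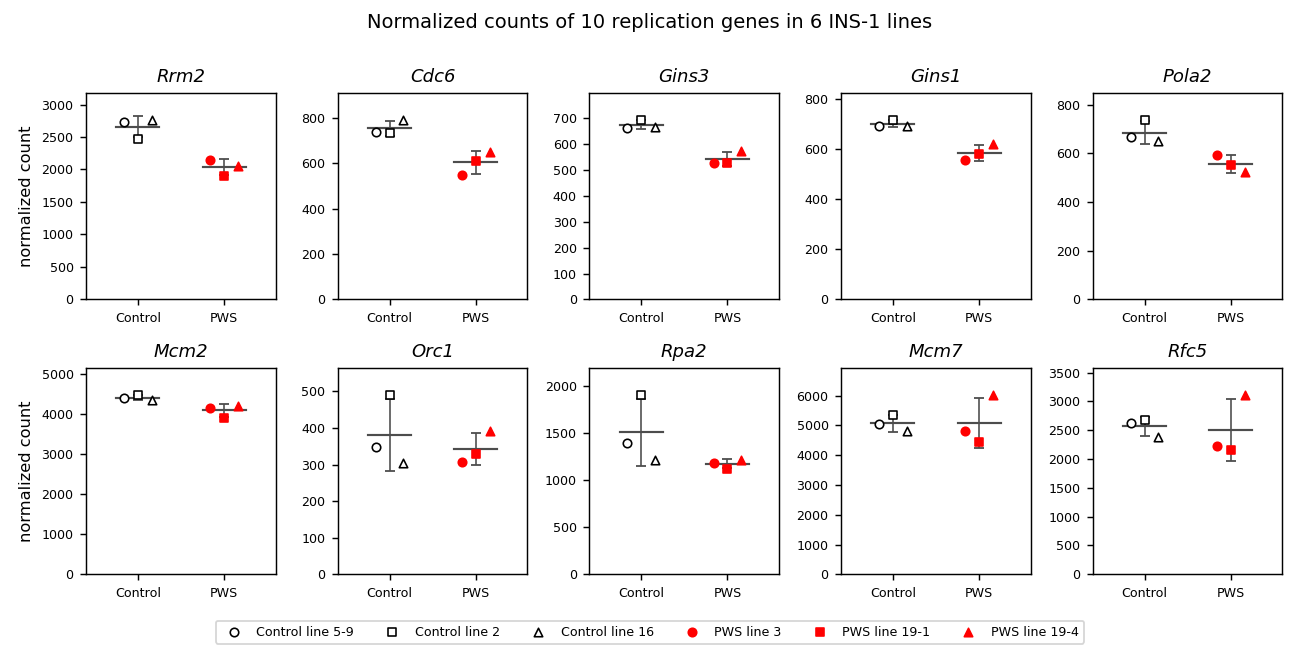
Normalized counts (y axis, from 0) of 10 replication genes in the 3 control lines (open black) and the 3 PWS lines (filled red), with group means and SD bars (n = 3). *Rrm2*, *Cdc6*, *Gins3*, *Gins1*, *Pola2* and *Mcm2* show no overlap between groups; for *Orc1* and *Rpa2* line 2 is high (491 and 1910), and for *Mcm7* and *Rfc5* line 19-4 is high (6036 and 3117).

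By role, the medians were -0.18 for helicase activation and -0.19 for single-strand binding, -0.10 for polymerases delta and epsilon, -0.09 for origin licensing and for primase with polymerase alpha, -0.08 for strand maturation, -0.07 for chromatin assembly, -0.06 for the clamp and its loader, and -0.05 for the MCM2-7 ring and for nucleotide supply. Whether the roles differ from each other was not tested, and the groups hold between 2 and 6 genes. Leaving out 1 line moved several of these medians. Without line 19-4 the clamp and its loader stood at -0.18 (-0.13 with chromosome centring), the MCM2-7 ring at -0.12 and origin licensing at -0.17. Without line 2 origin licensing was at -0.02 and polymerases delta and epsilon at -0.06, and without line 16 these groups were at -0.17 and -0.19. Nucleotide supply was at -0.01 without line 5-9 and at -0.08 without line 2. Chromatin assembly was at -0.04 without line 3, and strand maturation at -0.04 on uniquely assigned reads. Helicase activation ran only from -0.21 to -0.18 and single-strand binding from -0.24 to -0.15.

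The surrounding pathway had a median on the same side of 0, nearer to it. Of 110 further genes of replication, nucleotide supply and G1/S control, 107 were named in the table and 104 were tested (*Dna2*, *Cdkn2d* and *E2f1* were not found by name). Among them 70 were lower and 34 higher, the median was -0.06, no gene passed the adjusted threshold in limma or edgeR, and 1 passed in DESeq2. At an unadjusted p under 0.05 in limma, 14 were lower and 1 was higher, against 5.35 and 6% of all tested genes. PWS lines lay wholly below control lines for 16 and wholly above them for 4, against 9.01 and 8.43% of all tested genes. The gene past the threshold in DESeq2 was *Cdkn2c*, the CDK4/6 inhibitor p18, with counts of 1522, 2004 and 1404 in control and 1202, 1162 and 893 in PWS lines (-0.59, SE 0.16; adjusted p = 0.277 in limma and 0.0227 in DESeq2). *Cdkn2c* lies on chromosome 5, its fold change was -0.44 without line 2 and -0.47 with chromosome centring, and 64.1% of its reads were unique.

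The other lists were described by the genes at their ends. Among origin and firing factors (9 of 17 lower) *Recql4* had -0.31 and *Rif1*, which restrains late origins, 0.17. Among other polymerase and loader subunits (8 of 9 lower) the PCNA-binding factor *Pclaf* had -0.28 and *Atad5*, an unloader of PCNA, 0.02. Among other fork factors (7 of 12 lower) *Clspn*, the checkpoint mediator claspin on chromosome 5, had -0.33 with 41.7% unique reads, and *Tipin* 0.11 with 54.5%. In chromatin copying (7 of 9 lower) the histone chaperone *Asf1b* had -0.35, with counts of 1167, 1137 and 1004 in control and 969, 865 and 767 in PWS lines, and *Hells* had 0.18 with 0% unique reads. None of these genes passed the adjusted threshold in limma, edgeR or DESeq2. Without line 19-4 the fold change was -0.19 for *Recql4*, 0.10 for *Rif1*, 0.04 for *Tipin* and 0.04 for *Hells*, which was 0.03 without line 16, and without line 2 that of *Clspn* was -0.22.

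In G1/S control, 9 of 10 cyclins and kinases were lower, with a median of -0.18. *Ccnd1*, cyclin D1, was at the lower end with -0.91 (SE 0.34) at low counts of 53.2, 67 and 136 in control and 37.8, 37.1 and 50.9 in PWS lines. Control line 16 alone held the high value, and without it the fold change was -0.52. *Cdc25a*, a phosphatase that activates CDK2, was at the upper end with 0.08, and 0.05 without line 19-4. Of the CDK inhibitors, *Cdkn1a* (p21) counted 333, 352 and 277 in control and 280, 283 and 527 in PWS lines, where line 19-4 alone was high (0.12, and -0.18 without that line). *Cdkn1c* and *Cdkn2b* had 0 reads in every library, where a count of 0 allows up to 3 reads, and *Cdkn2a* had 1 read in all. Of the E2F and pocket protein genes 11 of 15 were lower, from *Mybl2* (-0.33, and -0.15 without line 2, which had the highest count) to *E2f3* (0.22, and 0.11 without line 19-4).

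Other nucleotide supply genes (10 of 17 lower) ran from the nucleoside transporter *Slc29a1* (-0.80, SE 0.31, with mean counts of 48.6 in control and 27.5 in PWS lines) to *Samhd1*, which breaks down dNTPs (0.25, SE 0.11). In the S phase checkpoint list 7 of 12 were lower, from *Rad9a* (-0.22, and between -0.38 without line 16 and -0.07 without line 19-1) to *Brca2* (0.44, SE 0.19). *Brca2* lies on chromosome 12 and counted 1467, 1322 and 1621 in control and 1527, 1871 and 2735 in PWS lines. Line 19-4 was the highest for *Brca2*, and its fold change was 0.21 without that line and 0.35 with chromosome centring. Of the 3 genes of these lists on chromosome 12, 3 were highest in line 19-4, and of the 9 on chromosome 5, 8 were highest in line 2.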

How the data were processed

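Total RNA libraries (rRNA depleted, stranded, paired-end) of 6 clonal INS-1 lines were trimmed, aligned with STAR 2.7.0e to the Ensembl rat genome with transgenes added, and counted by the authors with HTSeq 0.11.2, including (nonunique all) or leaving out (nonunique none) multi-mapped and ambiguous reads, and with RSEM 1.3.1. The deposited values are a signal: counts divided by DESeq2 size factors. Of the values above 0 in both HTSeq tables, 100% came out as whole reads (tolerance 0.01 reads), and edgeR and DESeq2 were run on those reads as alternatives. The authors' own fold change and p-value columns were not used.

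The nonunique all table was tested with limma 3.58.1 (trend) in R 4.3.3 on log2(normalized count + 1), PWS against control, over 15579 features with a mean of at least 5, with Benjamini-Hochberg adjustment. edgeR 4.0.16 (quasi-likelihood) called 32 genes and DESeq2 1.42.0 called 228. Depth was 26016478 to 36084261 reads under nonunique all and 17530149 to 23022637 under nonunique none. The alternatives were other pseudocounts, filters, scalings and tools, the other tables, leaving out each line, averaging lines 19-1 and 19-4, a replicate block, and chromosome centring (chosen after seeing the data). The code was tested on simulated data. The members and lists were chosen with earlier results of these data known. Genes named with values were those passing an adjusted p of 0.05 in any tool, the ends of each role or list, and all of MCM2-7 and nucleotide supply; the other members named are listed in the text. Chromosomes and promoters came from RefSeq GRCr8, which is not the build of the files, and were matched by symbol.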

Additional observations from a re-analysis of the deposited data

How the results depend on the processing

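The median log2 fold change of the 42 genes stayed between -0.14 and -0.09 over 19 alternatives, and 32 to 40 members were lower. The number of all genes called, 40 in the main test, was 9 with a mean of at least 50, 228 in DESeq2, 16 with nonunique none counting and 12 with RSEM. Members called rose from 0 to 1 in DESeq2 (*Rrm2*, adjusted p 0.00797, against 0.17 to 0.566 for this gene under the limma and edgeR alternatives). Members lower at an unadjusted p under 0.05, 9 in the main test, ranged from 5 (without line 19-1, where 4.08% of all genes were lower at that level) to 11 (without line 19-4, 3.46%) when 1 line was left out, and non-overlapping members in either direction, 15 in the main test, from 16 (without line 3, where 30.6% of all genes did not overlap) to 23 (without line 19-4, 26.4%). With lines 19-1 and 19-4 averaged 23 members did not overlap, against 26.2% of all genes in either direction.

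The replicate numbers do not pair the lines: deviations of same-numbered lines correlated at 0.00345, 0.0467 and 0.00513. With the replicate block 36 genes were called, 0 members were called, 7 members were lower at an unadjusted p under 0.05 (5.12% of all genes), and the median stayed at -0.11.

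Of 60 named genes, 44 kept their sign under every alternative, and 16 turned it in 31 of 1138 values. By tool or table, *Mcm7* became 0.01 in edgeR and 0.01 in DESeq2, *Lig1* 0.01 with nonunique none counting and *Chaf1b* -0.00 with RSEM. With lines 19-1 and 19-4 averaged, *Chaf1b* became -0.03 and *Atad5* -0.00. With 1 line left out at a time, fold changes crossed 0, spanning -0.28 to 0.07 for *Orc1*, -0.11 to 0.03 for *Orc6*, -0.13 to 0.09 for *Mcm7*, -0.06 to 0.11 for *Pola1*, -0.25 to 0.07 for *Pold1*, -0.16 to 0.00 for *Pold2*, -0.12 to 0.03 for *Pole*, -0.15 to 0.04 for *Rfc2*, -0.16 to 0.10 for *Rfc3*, -0.22 to 0.04 for *Rfc5*, -0.03 to 0.11 for *Chaf1b*, -0.01 to 0.15 for *Tyms*, -0.06 to 0.02 for *Dut*, -0.04 to 0.08 for *Atad5* and -0.18 to 0.28 for *Cdkn1a*. The causes were not tested.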
